A study of Mus musculus with 16 samples.

Results

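The cortex of Grn knockout mice was compared with that of wild-type mice, both given saline, across every gene that the libraries measured well enough. Grn encodes progranulin, and the 2 groups were KO saline (n = 5 mice, 4 males and 1 female) and WT saline (n = 6, 3 males and 3 females). The animals are C57BL/6, the KO saline mice are labelled Grn KO without further description of the allele, and neither group received a virus or a progranulin protein. They are 11 of 16 libraries in the series; the other 5, from Grn knockout mice given an adeno-associated virus, were left out. Age at collection ran from 12 to 12.93 months, the recorded treatment lasted 8 months, and each library came from the frozen, powdered brain tissue of 1 mouse perfused with cold buffered saline. RNA integrity numbers lay between 9.2 and 9.6, except that 1 library of each group, KO saline replicate 4 and WT saline replicate 3, had 8. Of 53801 gene identifiers, the 10026 with at least 10 counts in at least 5 of the 11 libraries were tested, and they held 98.7% of all counts.

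Progranulin is a secreted glycoprotein that is taken up into lysosomes and cut there into granulins, and neurons and microglia are its main sources in the brain. In people, loss of a single copy of GRN causes frontotemporal dementia and loss of both causes a lysosomal storage disease of neurons. Mice without Grn are known for lysosomal storage, activated microglia and reactive astrocytes that build up with age.

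Grn was counted in all WT saline libraries, at 9.66 CPM (counts scaled for library size by TMM) in the lowest, 19 in the median and 36.4 in the highest, with a mean of 20.2 ± 9.06 CPM (SD, n = 6). All 5 KO saline libraries had a Grn count of 0. Over each whole group, 226 counts stood against 0, which puts the knockout at least 49.8-fold lower, with 3 counts over the group taken as the floor (adjusted p = 0.00104, edgeR quasi-likelihood test). The gene lies at chr11:102430315-102437048 on the plus strand of GRCm38.

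Across the transcriptome, 3 of 10026 genes (0.0299%) passed an adjusted p of 0.05 in edgeR's quasi-likelihood test. Besides Grn they were Gfap and Ctss, so that 2 genes rose (0.0199%) and 1 fell (0.00997%) in KO saline. At an unadjusted p under 0.05 in that test there were 180 higher genes (1.8%) and 137 lower genes (1.37%), 317 in all. Were no gene changed, a share of about 0.05 of all genes would be expected there, which is more than these. Without 1 library the total ran from 213 (without KO saline replicate 5) to 568 (without KO saline replicate 3), and it was 489 without KO saline replicate 1. The remaining genes had log2 changes on both sides of 0, 5146 above and 4880 below among all those tested, with a median of 0.0062 and 5th and 95th percentiles of -0.34 and 0.39. A fitted change over 2-fold was seen for 18 genes, 14 higher and 4 lower. The lower ones were Grn, Sstr3, RP24-68H1.1 and Xist, the last of which is expressed from the X chromosome of females.

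**Figure D1:**
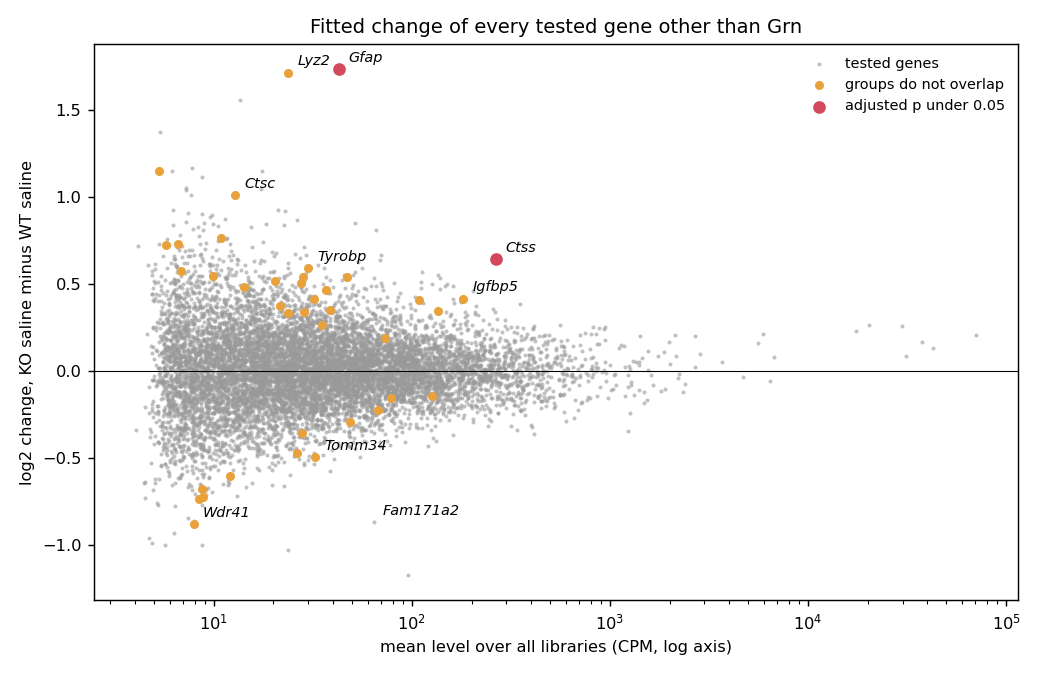
Fitted log2 change (KO saline minus WT saline, vertical axis) against mean level over the 11 libraries in CPM (log horizontal axis) for each tested gene except Grn; red marks adjusted p under 0.05 in edgeR, and orange marks genes whose groups do not overlap. Gfap at 1.74 and Ctss at 0.65 are the red points, and Lyz2 at 1.72 lies beside Gfap.

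Gfap encodes the intermediate filament protein of astrocytes, whose amount is the standard sign of astrocyte reactivity. Its levels in KO saline replicates 1 to 5 were 67.2, 48.9, 75.0, 91.3 and 66.5 CPM, and in WT saline the lowest, median and highest were 13.3, 20.3 and 27.7 CPM. Every knockout library lay above every wild-type library. Gfap rose from 20.8 ± 6.11 (SD, n = 6) to 69.8 ± 15.3 CPM (n = 5), a 3.33-fold change (log2 1.74, SE 0.20, adjusted p = 9.49e-04 in edgeR), and it passed in all 34 settings tried, with log2 changes from 1.56 to 2.18. In bulk tissue such as this, a change in the number of cells of a type and a change in RNA per cell cannot be told apart.

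Ctss encodes cathepsin S, a cysteine protease of lysosomes that in the brain is made by microglia and other macrophages. The 5 KO saline libraries held 332, 321, 379, 308 and 315 CPM, against 193, 211 and 229 CPM for the lowest, median and highest WT saline library. The groups did not overlap, and the spread within each was small. Ctss rose 1.56-fold, from 211 ± 15.8 (SD, n = 6) to 331 ± 28.2 CPM (n = 5; log2 0.65, SE 0.11, adjusted p = 0.0323 in edgeR). Its log2 change stayed between 0.59 and 0.67 in all settings, but the call passed in only 15 of 34 of them. Among fits without 1 library it held only without WT saline replicate 4 (adjusted p = 0.0394 in edgeR) and was lost without any other, with an adjusted p of up to 0.154. It was also lost with library totals as the only scaling (adjusted p = 0.11), with recorded sex as a term (0.149), with age as a term (0.139), without both libraries of RNA integrity number 8 (0.341) and in males alone (0.9999), all in edgeR.

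Lyz2 encodes lysozyme M, an antibacterial enzyme of macrophages and activated microglia, and came next in order of p. It measured 64.8, 19.7, 29.5, 41.6 and 36.9 CPM in KO saline replicates 1 to 5, and 4.90, 11 and 17.4 CPM in the lowest, median and highest WT saline library. No library of one group reached the other, although KO saline replicate 2 was only just above. The means were 11.5 ± 4.88 (SD, n = 6) and 38.5 ± 16.9 CPM (n = 5), a log2 difference of 1.72 (SE 0.31) that did not pass (adjusted p = 0.119 in edgeR). Lyz2 passed in edgeR without KO saline replicate 2 (adjusted p = 0.0238) and in DESeq2 (adjusted p = 4.07e-04).

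The promoters of these 3 genes are shown because they are the genes of lowest p that were higher in KO saline. Each line is the RefSeq sequence of GRCm38.p6 from 250 bases before to 50 bases after the annotated start, on the gene's own strand. Capitals mark matches, on either strand, to GGAAGT (the core that ETS factors such as PU.1 bind), TTCNNNGAA (the STAT type) or TATAAA (the TATA type), and CACGTG, the core of the element bound by the lysosomal regulator TFEB, was searched as well. The windows are chr11:102897151-102897450 on the minus strand for Gfap, chr3:95526536-95526835 on the plus strand for Ctss and chr10:117282223-117282522 on the minus strand for Lyz2.
Gfap: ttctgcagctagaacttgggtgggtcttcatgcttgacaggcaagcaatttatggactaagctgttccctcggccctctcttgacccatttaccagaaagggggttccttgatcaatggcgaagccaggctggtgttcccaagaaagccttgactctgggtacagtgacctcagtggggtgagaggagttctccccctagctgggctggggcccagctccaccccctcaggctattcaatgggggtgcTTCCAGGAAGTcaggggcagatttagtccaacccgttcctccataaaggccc
Ctss: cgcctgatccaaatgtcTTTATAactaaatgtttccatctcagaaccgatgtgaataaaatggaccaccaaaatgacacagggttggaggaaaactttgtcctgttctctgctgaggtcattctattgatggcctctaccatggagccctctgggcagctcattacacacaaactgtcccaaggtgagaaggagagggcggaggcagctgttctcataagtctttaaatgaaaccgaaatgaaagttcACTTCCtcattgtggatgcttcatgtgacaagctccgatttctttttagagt
Lyz2: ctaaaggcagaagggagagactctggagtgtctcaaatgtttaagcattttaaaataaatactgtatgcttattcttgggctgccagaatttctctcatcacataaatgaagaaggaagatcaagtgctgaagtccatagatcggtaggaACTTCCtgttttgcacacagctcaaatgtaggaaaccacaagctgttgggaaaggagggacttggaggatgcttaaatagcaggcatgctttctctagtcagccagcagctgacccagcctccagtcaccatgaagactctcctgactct
All 3 windows held GGAAGT or its reverse complement once, which 23.8% of 32851 promoter windows of this length also held. In Gfap it overlapped a match to TTCNNNGAA, found in 8.30% of windows. Ctss held a TATAAA match on the reverse strand, found in 13.6% of windows, far upstream of the start. None of the 3 held CACGTG, nor did the Grn window, against 7.15% of all windows. A match is a stretch of letters and no measurement of binding.

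**Figure D2:**
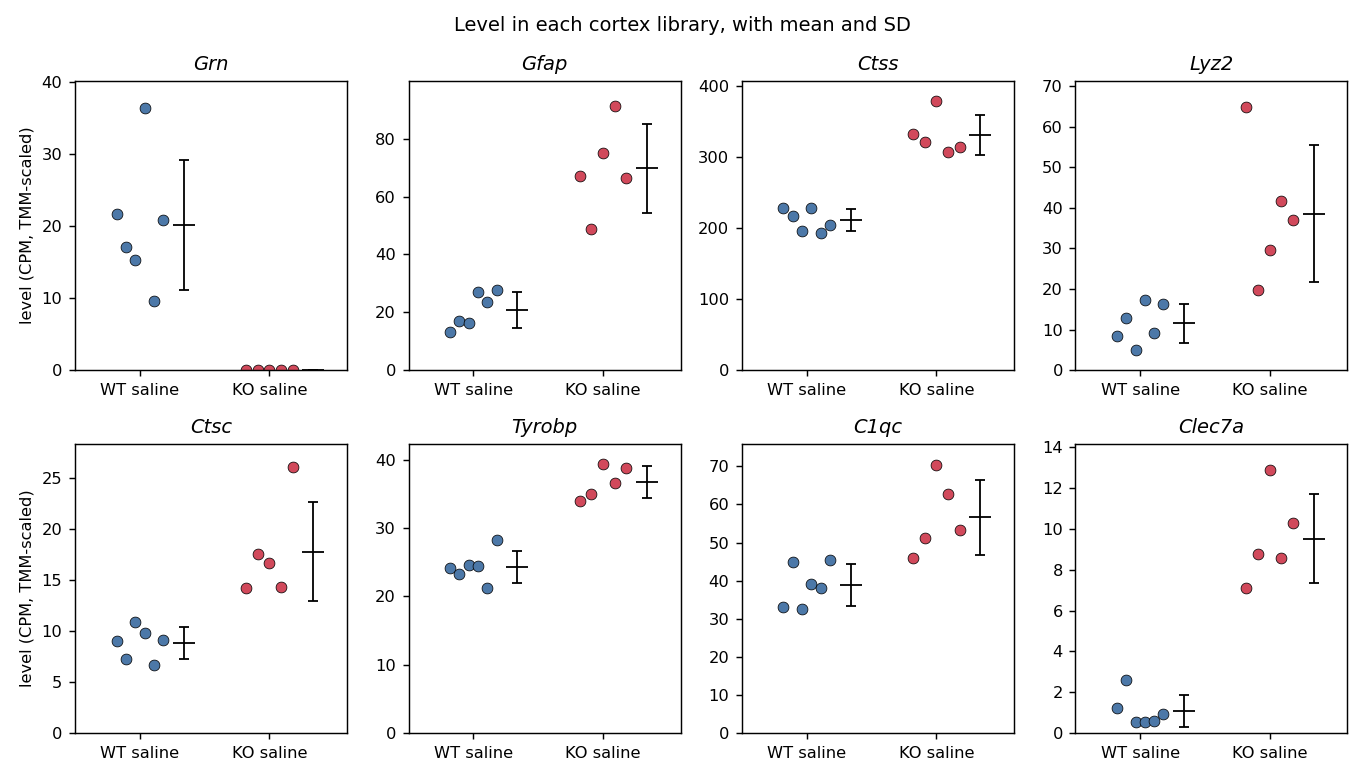
Level in CPM of 8 genes in each library (points), with the mean and SD of each group beside them; every vertical axis starts at 0. Grn is at 0 in all KO saline libraries, and in the other 7 genes each KO saline library lies above each WT saline library.

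Genes whose libraries do not overlap between the groups were counted next, without a model. KO saline lay wholly above WT saline for 27 of 10026 genes (0.269%) and wholly below for 13 (0.13%). For untied values in random order, the chance of such a separation in a given direction is 0.00216 per gene. Non-overlap of a single gene therefore does not by itself show a group difference. The split depended on the scaling: with library totals alone it was 10 above and 29 below, and after thinning all libraries to the smallest total it was 9 above and 27 below. Non-overlap of single genes and list sums below is given under TMM scaling. By library totals alone, Igfbp5, C1qc and Mrc1 overlapped. Total counts themselves were lower in KO saline, at 1497800 ± 162617 (SD, n = 5) against 1821110 ± 182193 (n = 6; two-sided exact permutation test, p = 0.0173, adjusted p = 0.156 over 9 library measures).

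Several of the non-overlapping genes are known from microglia. Ctsc encodes cathepsin C, a lysosomal dipeptidyl peptidase that activates granule serine proteases. Its KO saline values were 14.2, 17.5, 16.7, 14.3 and 26.0 CPM, beside 6.64, 9.07 and 10.9 CPM for the lowest, median and highest WT saline library. All knockout libraries were higher, and the fifth stood well above the other knockout libraries. The log2 difference was 1.01 (SE 0.22) with means of 8.78 ± 1.58 and 17.7 ± 4.85 CPM, and it did not pass (adjusted p = 0.434 in edgeR).

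Tyrobp encodes DAP12, the adaptor through which the microglial receptor TREM2 signals. In KO saline it measured 34, 35.0, 39.4, 36.5 and 38.7 CPM, and in WT saline from 21.1 through a median of 24.3 to 28.2 CPM. The groups were tight and apart, with a log2 difference of 0.59 (SE 0.14), but the adjusted p was 0.690 in edgeR. Trem2 itself overlapped between the groups, at 6.32 ± 3.09 against 9.65 ± 5.03 CPM and a log2 difference of 0.56 (SE 0.38).

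C1qc, a chain of the complement initiator C1q, had 45.9, 51.1, 70.4, 62.7 and 53.2 CPM in KO saline and 32.7, 38.6 and 45.4 CPM in the lowest, median and highest WT saline library. The groups did not overlap, by a narrow margin between the lowest knockout and highest wild-type library. The other chains had similar log2 differences with overlapping libraries: C1qc stood at 0.54 (SE 0.15), C1qb at 0.56 (SE 0.24) and C1qa at 0.45 (SE 0.22). None of the chains passed (adjusted p = 0.998 in edgeR for each).

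Clec7a encodes dectin-1, a pattern receptor that microglia display when activated, and it fell just short of the count filter. Its counts in KO saline replicates 1 to 5 were 9, 12, 17, 15 and 17, against 1 to 5 in WT saline, or 70 against 12 in all. Levels were 9.52 ± 2.19 CPM (SD, n = 5) and 1.07 ± 0.789 CPM (n = 6), and no library of one group reached the other. edgeR's own filterByExpr rule kept it, with a fitted log2 difference of 3.05. Its WT saline counts could not have met that rule, so it was admitted only through the group in which it is high. No p-value is given for it. Its call without any count filter is listed with the alternative settings below.

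The disease-associated microglia list holds genes that microglia switch on around pathology in other mouse models. Of its 30 members, 21 were tested; 19 had log2 changes above 0 and 2 below, with a median of 0.25 (0.0062 for all tested genes), and none passed. Lyz2 and Tyrobp were the members whose libraries did not overlap, which is 2 of 21 against 0.269% of all genes. The list was chosen with earlier results of these data known, and the difference between these shares was not tested. Beyond them, Ctsz, a lysosomal carboxypeptidase, stood at a log2 difference of 0.55 (SE 0.19), the lipid carrier gene Apoe at 0.20 (SE 0.11) and Spp1, which encodes osteopontin, at 0.42 (SE 0.28). Ctsb, the gene of cathepsin B, was level between the groups, at 291 ± 34.6 and 295 ± 34.5 CPM.

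Several members of that list were counted too rarely for the test. Lgals3, the galectin-3 gene, had 15 counts over the KO saline libraries and 3 over the WT saline libraries. Each knockout library was above each wild-type library in CPM, but only at 0.605 against 0.603 CPM where they came closest. Both of those values come from a single count, so the gap reflects library size. Gpnmb, a lysosomal glycoprotein gene, had 47 against 27 counts, Cd68 51 against 40, the cystatin gene Cst7 13 against 4 and the integrin gene Itgax 2 against 0, all with overlapping libraries. At this depth nothing firmer can be read from those counts.

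Markers of microglia in general were mostly above 0 as well. In the pan-microglia and macrophage list 15 of 20 members were tested, 13 were above 0 and 2 below, the median was 0.24, and Ctss was the 1 that passed. Summed over the list, levels ran from 504 to 616 CPM in WT saline and from 689 to 863 CPM in KO saline. Without Ctss the sums were 308 to 388 and 374 to 484 CPM, and the groups overlapped. Cd33, the gene of a sialic acid receptor of microglia, stood at a log2 difference of 0.84 (SE 0.22) with overlap, and did not pass (adjusted p = 0.998 in edgeR).

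Of 15 tested homeostatic microglia genes, 11 were above 0 and 4 below, with a median of 0.12, and none passed. The libraries of 1 of the 15 did not overlap, with KO saline higher, against 0.269% of all genes. P2ry12, the purinergic receptor of resting microglia, was at 52.3 ± 8.60 CPM in WT saline and 63.5 ± 10.4 CPM in KO saline, with overlap. Summed levels of this list overlapped, at 1965 to 2741 and 2265 to 2826 CPM.

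Other blood and border cells were near the limit of counting. Mrc1, which encodes the mannose receptor, was the only 1 of 7 border macrophage markers to be tested; its 5 knockout values of 6.33 to 8.03 CPM lay above the wild-type range of 2.17 to 6.04 CPM (log2 0.72, SE 0.28, adjusted p = 0.998 in edgeR). No neutrophil and monocyte marker was tested, and their summed levels ran from 2.27 to 14.1 CPM in WT saline and from 6.65 to 28.5 CPM in KO saline. The lymphocyte markers Cd3e, Cd8a, Cd79a and Nkg7 had 0 counts in all 11 libraries, and the list's sums were 28.3 to 39.8 and 16.9 to 41.1 CPM. Their part in the microglial values was not tested.

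The complement list, which shares C1q with the microglia lists, had 8 of 18 members tested, 7 above 0 and 1 below, a median of 0.50 and none that passed. Its summed level was 162 to 183 CPM in WT saline and 220 to 251 CPM in KO saline, without overlap. C4b, the gene of complement component C4, stood at 4.39 ± 1.61 and 8.43 ± 3.11 CPM (log2 0.93, SE 0.32), and mouse C4b has a near-identical copy with which it may share reads. Interferon response genes, of which 10 of 23 were tested, were above 0 in 8 and below in 2, with a median of 0.33. Their members Lgals3bp (log2 0.66, SE 0.29), Ifit2 (0.59, SE 0.39) and Trim30a (0.42, SE 0.29) overlapped between the groups, and none passed.

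Reactive astrocyte genes were described as a list. Of 25 members 9 were tested, 8 above 0 and 1 below, the median was 0.41, and Gfap was the 1 that passed. Vim, the intermediate filament gene that astrocytes raise along with Gfap and that vessels also express, measured 35.6, 45.2, 42.4, 45.1 and 51.4 CPM in KO saline and 21.7, 28.8 and 37.4 CPM in the lowest, median and highest WT saline library. A single wild-type library reached above the lowest knockout library, and the log2 difference of 0.59 (SE 0.16) did not pass (adjusted p = 0.998 in edgeR).

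Stat3, the transcription factor of the astrocyte response to cytokines, stood at 41.8 ± 4.07 CPM in WT saline and 55.7 ± 5.57 CPM in KO saline (log2 0.41, SE 0.13). Serpina3n, a protease inhibitor gene often used as an astrocyte reactivity marker, had 17 and 19 counts over the groups and was not tested, and Lcn2 had 0. With Gfap left out, the list summed to 192 to 215 CPM in WT saline and 221 to 298 CPM in KO saline. General astrocyte markers, 18 of 18 tested, were above 0 in 14 and below in 4 with a median of 0.07, and their sums overlapped at 13080 to 15579 and 13923 to 17493 CPM.

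**Figure D3:**
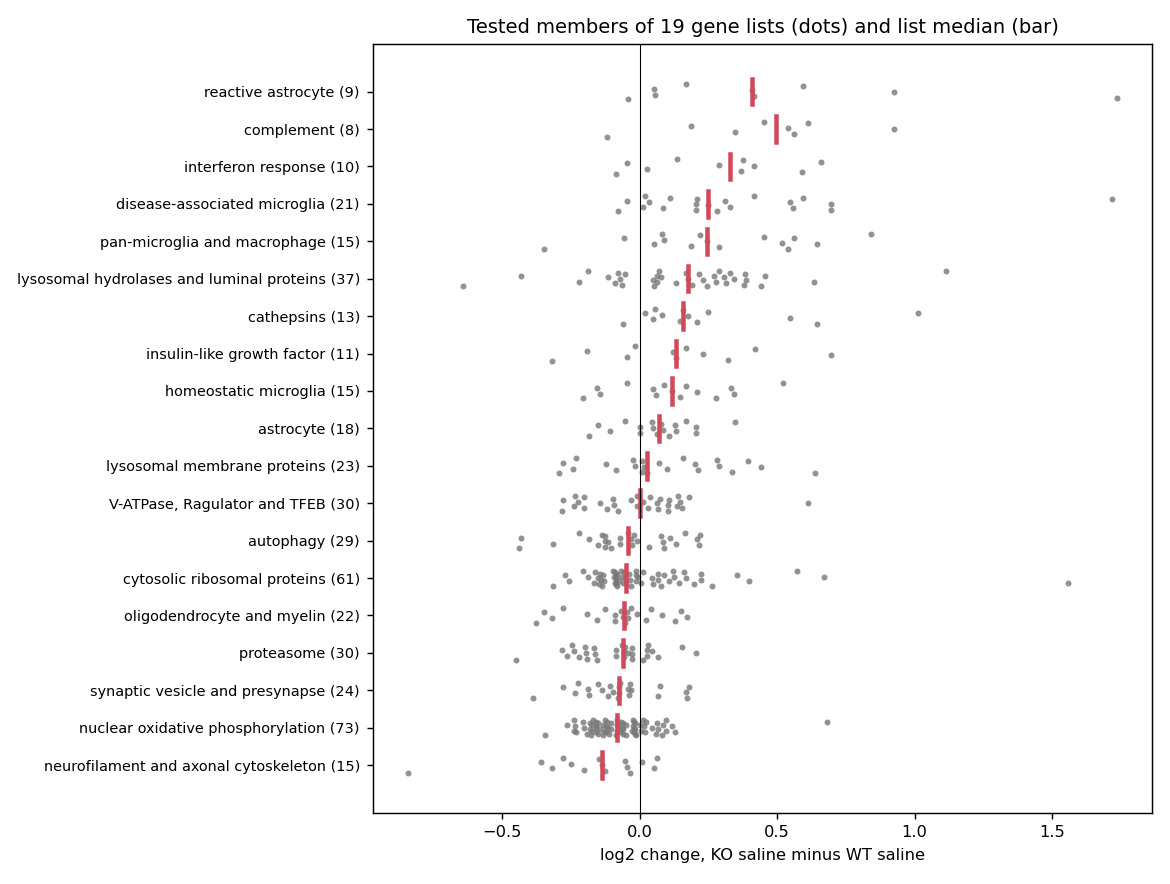
Log2 change (KO saline minus WT saline, horizontal axis) of the tested members (grey dots) of 19 gene lists, with the list median as a red bar and the number of tested members in brackets. Medians run from 0.50 for complement and 0.41 for reactive astrocytes to -0.14 for neurofilament and axonal cytoskeleton genes, and lists share members.

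Genes of the lysosome were divided by their place in it. Among cathepsins and their partners 13 of 16 were tested, 12 were above 0 and 1 below, the median was 0.16, and Ctss was the 1 that passed. Among hydrolases and other proteins of the lumen 37 of 46 were tested, with 27 above 0, 10 below, a median of 0.17 and none that passed. In 2 of the 13 tested cathepsin list members and 1 of the 37 luminal members the libraries did not overlap, with KO saline higher, against 0.269% of all genes. Both medians stayed above 0 in every setting, at 0.09 to 0.20 for cathepsins and 0.12 to 0.22 for luminal proteins.

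Within that luminal list the members differed in direction. Rnaset2a, the gene of the lysosomal ribonuclease T2, stood at 5.59 ± 1.34 CPM in WT saline and 12.4 ± 4.65 CPM in KO saline (log2 1.11, SE 0.28), with KO saline replicate 4 inside the wild-type range. It has a near-identical copy, Rnaset2b, so its reads may be shared. Man2b1, a lysosomal mannosidase gene, stood at a log2 difference of 0.63 (SE 0.20), while Lipa, the gene of lysosomal acid lipase, was lower in KO saline at 14.2 ± 3.09 and 9.14 ± 2.94 CPM (log2 -0.64, SE 0.24). The libraries overlapped in all 3 genes, and none passed (adjusted p = 0.998 in edgeR).

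Lysosomal membrane proteins, among them channels and transporters, lay closer to 0. Of 31 members 23 were tested, 15 above 0 and 8 below, with a median of 0.03 that ran from -0.02 to 0.09 over the settings. Lamp2, a main membrane glycoprotein gene, measured 190, 212, 174, 211 and 151 CPM in KO saline and 109, 151 and 163 CPM in the lowest, median and highest WT saline library. All knockout libraries but replicate 5 were above all wild-type libraries (log2 0.39, SE 0.13, adjusted p = 0.998 in edgeR). The proton pump, Ragulator and TFEB list had 30 of 34 tested and divided evenly, 15 above 0 and 15 below, with a median of 0.0018. Autophagy genes, 29 of 30 tested, were above 0 in 10 and below in 19, with a median of -0.04 whose sign differed between settings.

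Genes of proteins that bind or handle progranulin were described as a list, and no tested member passed. Their list had 15 of 20 tested, 9 above 0 and 6 below, and a median of 0.11. Sort1, the gene of the uptake receptor sortilin, was at 114 ± 22.6 and 110 ± 19.9 CPM. Psap, which encodes prosaposin, the carrier that brings progranulin to lysosomes, was at 1269 ± 268 and 1193 ± 223 CPM. Tmem106b, a lysosomal membrane gene in which human variants modify progranulin disease, was at 197 ± 41.4 and 198 ± 39.5 CPM. The 95% intervals of their log2 differences were -0.37 to 0.28, -0.41 to 0.23 and -0.33 to 0.36.

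Genes outside glia and lysosomes were also among the 12 of lowest p that were higher in KO saline. Igfbp5, which encodes an insulin-like growth factor binding protein, had 198, 219, 212, 205 and 218 CPM in KO saline and 141, 155 and 186 CPM in the lowest, median and highest WT saline library. The knockout libraries lay together above the wild-type ones under TMM scaling, but the groups overlapped by library totals. The log2 difference was 0.42 (SE 0.11, adjusted p = 0.998 in edgeR). In its list 11 of 13 members were tested, 7 above 0 and 4 below with a median of 0.13, and Igf1 (log2 0.70, SE 0.29) and Igfbp4 (0.32, SE 0.13) overlapped. The ribosomal pseudogene Rps16-ps2, whose reads may belong to its parent gene, and the splicing factor gene U2af1 complete the 12 and overlapped too.

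On the lower side no gene except Grn passed, and the 11 that follow it in p all had an adjusted p of 0.998 in edgeR. Tomm34, the gene of a chaperone for mitochondrial import, had 26.9, 26.3, 28.0, 26.2 and 25.4 CPM in KO saline and 30.2, 38.8 and 42.9 CPM in the lowest, median and highest WT saline library. The knockout libraries were nearly level with each other and below all wild-type ones (log2 -0.49, SE 0.15). Wdr41 encodes a partner of the C9orf72 protein, itself a frontotemporal dementia gene product. It measured 5.53, 2.19, 6.82, 6.27 and 6.05 CPM in KO saline against 7.06, 10.3 and 12.9 CPM in WT saline, without overlap (log2 -0.88, SE 0.27).

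Fgfr1op, Mrps23, Smyd4, Tmem163 and Noc2l likewise lay wholly below WT saline, with log2 differences from -0.74 in Fgfr1op to -0.47 in Mrps23. They encode, among other things, a centrosomal protein (Fgfr1op), a mitochondrial ribosome protein (Mrps23) and a zinc transporter (Tmem163). Scap, the escort of the sterol-sensing SREBP factors, stood at 37.3 ± 4.87 and 25.7 ± 4.99 CPM (log2 -0.53, SE 0.16) with overlap. Sstr3, a somatostatin receptor of neuronal cilia, was at 11.3 ± 4.23 and 5.63 ± 1.74 CPM, Dph2 at 7.37 ± 1.43 and 3.61 ± 1.91 CPM and the adaptor subunit gene Ap1m1 at 26.9 ± 3.85 and 17.2 ± 7.12 CPM, each with overlap.

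**Figure D4:**
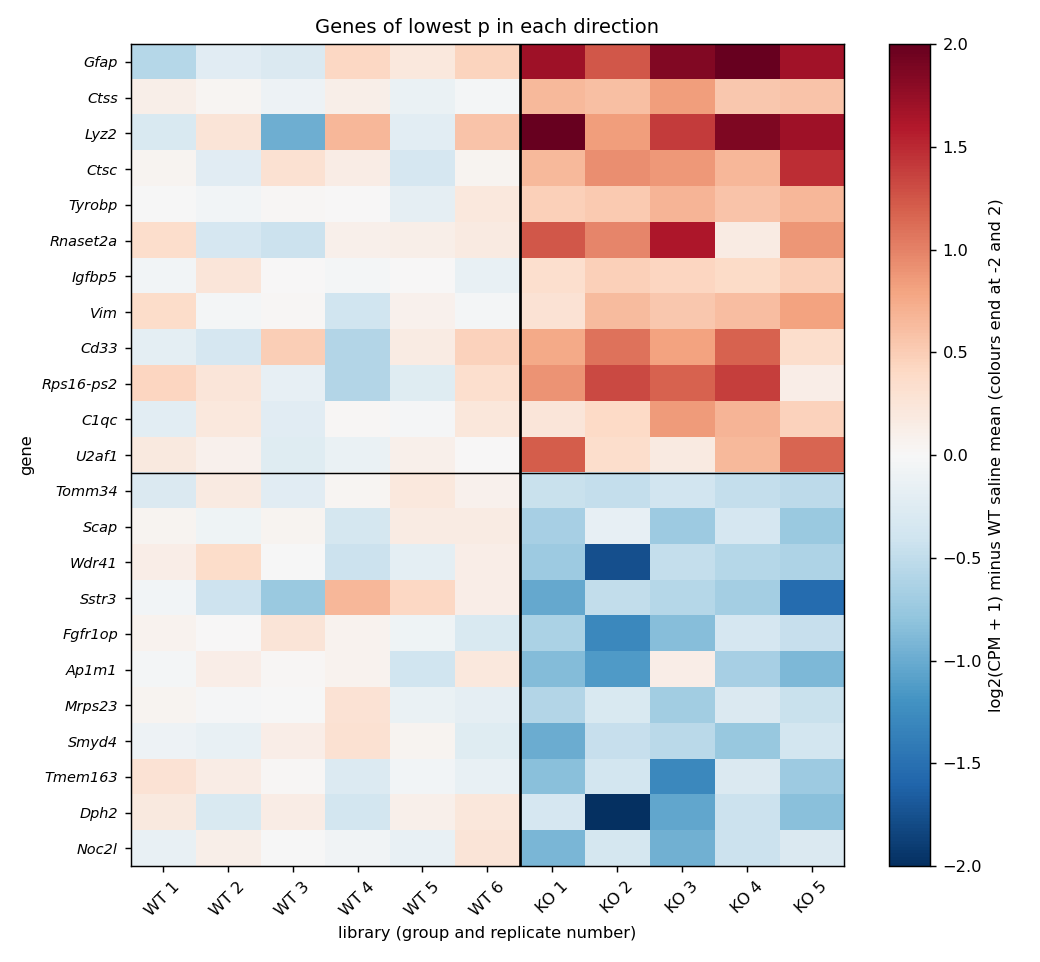
Level of the genes of lowest p in each library, as log2(CPM + 1) minus the WT saline mean (colour, ending at -2 and 2), with 12 higher genes above the line and 11 lower genes other than Grn below it. Gfap is red across KO saline, Lyz2 is palest there in replicate 2, and U2af1 and Scap each have knockout libraries close to the wild-type level.

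Some lists outside glia and lysosomes had most members below 0. Neurofilament and axonal cytoskeleton genes had 15 of 16 tested, 3 above 0 and 12 below, with a median of -0.14, and their member of lowest p was Stmn1, a tubulin-binding protein gene, at 9.27 ± 3.12 and 5.18 ± 1.52 CPM (log2 -0.84, SE 0.29). Nuclear genes of oxidative phosphorylation had 73 of 74 tested, 17 above 0 and 56 below, median -0.08. Proteasome genes, 30 of 30 tested, were above 0 in 8 and below in 22, median -0.06. These 3 medians stayed below 0 in every setting, and no member of the 3 lists passed.

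Presynaptic genes, 24 of 24 tested, were above 0 in 5 and below in 19, with a median of -0.08 that ran from -0.14 to 0.02 over the settings. Syp, the synaptic vesicle gene that encodes synaptophysin, measured 119, 102, 121, 103 and 103 CPM in KO saline and 109, 139 and 193 CPM in the lowest, median and highest WT saline library. The groups overlapped at the low end of WT saline (log2 -0.39, SE 0.15, adjusted p = 0.998 in edgeR). Postsynaptic genes leaned the other way, 19 above 0 and 6 below of 25 tested, with a median of 0.09. Mitochondrially encoded genes were above 0 in 8 of 8 tested, median 0.17, and took 25.5 ± 2.69% of counts in KO saline and 23.4 ± 1.42% in WT saline (two-sided exact permutation test, p = 0.139, adjusted p = 0.312), with KO saline replicate 1 highest at 29.8%.

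Oligodendrocyte and myelin genes, 22 of 23 tested, were above 0 in 6 and below in 16 with a median of -0.06, and none passed. Mog, a myelin surface protein gene, stood at 30.1 ± 5.65 CPM in WT saline and 22.9 ± 3.27 CPM in KO saline (log2 -0.38, SE 0.17) with overlap. Iron genes divided 5 above 0 and 4 below of 9 tested. Slc40a1, the gene of the iron exporter ferroportin, was at 5.30 ± 1.81 and 9.97 ± 3.4 CPM (log2 0.91, SE 0.29), and Tfrc, which encodes the transferrin receptor, at 98.2 ± 15.5 and 78.6 ± 11.6 CPM (log2 -0.32, SE 0.14). Neither passed (adjusted p = 0.998 in edgeR for each).

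Markers of neighbouring regions were summed in each library. Striatal markers summed to 602 to 2699 CPM in WT saline, highest in replicate 2, and to 972 to 1434 CPM in KO saline. Hippocampal markers summed to 413 to 587 and 494 to 613 CPM, with 4 of 5 tested members above 0 and a median of 0.18 that ran from 0.12 to 0.25 over the settings. Thalamic markers summed to 327 to 399 and 340 to 458 CPM, with 4 of 8 above 0 and a median of 0.02. No member of these 3 lists passed, and their part in the other results was not tested. Excitatory neuron sums overlapped at 5033 to 7325 and 5933 to 7127 CPM, and all 13 of their defining genes passed the filter, as did 19 of 21 markers of cortical layers. The first principal component held 41.7% of the variance and did not divide the groups (two-sided exact permutation test, p = 0.597, adjusted p = 0.672). Recorded sex matched the sex-linked genes in 11 of 11 libraries, and Spearman correlations between libraries ran from 0.88 to 0.97 across groups, 0.90 to 0.97 within KO saline and 0.90 to 0.97 within WT saline.

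Genes near Grn were looked at because Gfap is 450 kb away on the same chromosome. Within 1 Mb, 32 other genes were tested, 16 above 0 and 16 below with a median of 0.02. Gfap was the 1 that passed, against 0.0299% of all tested genes. Whether the place of Gfap near Grn has a part in its change was not tested. Fam171a2, whose annotated 3' end overlaps that of Grn by 68 bases on the opposite strand, measured 72, 21.2, 63.6, 38.8 and 27.2 CPM in KO saline and 44.1, 71.8 and 157 CPM in the lowest, median and highest WT saline library. The groups overlapped (log2 -0.87, SE 0.39, adjusted p = 0.998 in edgeR), and since the strand setting of the counting is not given, reads of the pair may be mixed. Slc25a39, the nearest tested gene on the other side, was at 49.5 ± 12.7 and 49.6 ± 14.1 CPM.

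Below the count filter, 4529 identifiers had at least 15 counts over the 11 libraries. KO saline lay wholly above WT saline in 12 of them (0.265%) and wholly below in 13 (0.287%). Both shares were not far from the chance of 0.00216 per gene given above, and many libraries held only a few counts. Clec7a had the widest gap in mean level on the higher side, followed by the unnamed transcript RP23-304O12.2 with 43 and 25 counts and the tRNA-modifying enzyme gene Dus1l with 38 and 33. Ptafr, a receptor for platelet-activating factor, with 22 and 13 counts, and Ccl8, a chemokine, with 15 and 3 counts were among them too. So were Stk33 with 13 and 5 counts and the unnamed transcripts RP23-126M2.1 with 28 and 18 and RP23-384G1.1 with 30 and 23. On the lower side, Zbtb14, a zinc finger gene, had 11 counts in KO saline and 44 in WT saline, Srd5a1, a steroid reductase gene, 16 and 49, and Cspg4, the NG2 proteoglycan of oligodendrocyte precursors and pericytes, 11 and 35. In the same order of groups, Traf5 had 4 and 27, Evpl 3 and 26 and Psmc3ip 2 and 24.

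The size of difference that could be seen depended on the level. The 95% interval of the log2 change had a median half-width of 0.64 for genes under 10 CPM, 0.41 from 10 to 100 CPM and 0.29 at 100 CPM or more. It lay wholly inside a 1.5-fold change in either direction for 5354 genes (53.4%). By level, these were 1467 of the 1678 genes at 100 CPM or more (87.4%), 3818 of the 6645 from 10 to 100 CPM (57.5%) and 69 of the 1703 under 10 CPM (4.05%). On simulated data of this depth, the test found 23% of genes changed 1.5-fold, 74.4% of those changed 2-fold and 98.8% of those changed 4-fold. In that simulation 200 of 10026 genes were changed, and each gene's spread was set by its level, not by its own libraries. With so many genes changed, the adjusted threshold is easier to pass than in data where 3 genes passed. These shares therefore cannot be carried over to the comparison here.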

How the data were processed

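Cortex RNA of 5 KO saline and 6 WT saline mice was measured, 1 library per mouse. Per the labels, libraries were made from 3' ends (QuantSeq) with molecular identifiers that mark PCR duplicates, so levels are not divided by gene length. STAR, FastQC 0.11.5, MultiQC 1.0, edgeR 3.40.2 and R 4.2 are named with build GRCm38.p6 in the submitters' processing notes. The step that assigned reads to genes, its annotation and its strand setting have no entry in the labels, headers or notes used here. Per the file headers, the authors deposited raw counts, whole numbers per gene, with at most 2 significant digits, so that the 17.0% of values above 0 that reach 100 are rounded. The authors also deposited a CPM signal table and, per library, a normalization factor, which is a ratio that multiplies the library size; both served only in alternatives.

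Total counts ran from 1351974 to 2119019 per library, and the floor of 3 counts covers counting error only. Genes with at least 10 counts in at least 5 libraries were scaled by TMM and tested with edgeR's robust quasi-likelihood fit (R 4.3.3, edgeR 4.0.16, limma 3.58.1, DESeq2 1.42.0), with group as the single factor. Benjamini-Hochberg adjustment ran over all tested genes, with a threshold of 0.05, and the fit's common biological coefficient of variation was 0.198; CPM are counts over TMM-scaled totals. Measures per library were compared by a two-sided exact permutation test, which doubles the smaller tail. The smallest possible single tail here is 0.00216, before doubling. Positions are from GENCODE M21 on GRCm38. The test was checked on simulated data drawn 4 times, where 200 of 10026 genes had been changed.

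Named genes are Grn, those that passed, the 12 of lowest p in each direction, up to 3 members of lowest p in lists described by member, a panel, up to 10 genes per direction under the filter whose groups do not overlap, and the tested genes beside Grn; Gpnmb, Cd68, Cst7, Itgax and Serpina3n come from the panel. RP24-68H1.1, Xist and Lcn2 were named after their values were seen, and some genes that this rule names are not reported here. Members and the 51 lists were chosen with earlier results of these data known, and no list was given a test. Alternatives covered scaling, filters, other tools, covariates, a replicate block, thinning and leaving out libraries.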

Additional observations from a re-analysis of the deposited data

Results flagged for a closer look

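In 214 groups of 5 or 6 libraries, 1 for each named gene and group, 15 had a library far from the rest of its group by Dixon's criterion, which chance alone flags in about 1 group in 20. Each is given by its CPM.

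Among genes higher in KO saline, Ctsc reached 26.0 in KO saline replicate 5 against 14.2 to 17.5 in the others. Igfbp5 reached 186 in WT saline replicate 2 against 141 to 158. Clec7a was 2.59 in WT saline replicate 2 against 0.543 to 1.21. Igf1 was 14.1 in WT saline replicate 6, where Lgals3bp was 14.5 and RP23-278I3.4 was 0.454, the only count of that transcript in WT saline. Trim30a was 19.3 in WT saline replicate 5. The catalase gene Cat was 71.2 in KO saline replicate 3 against 36.5 to 45.1.

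Among genes lower in KO saline, Wdr41 was 2.19 in KO saline replicate 2 against 5.53 to 6.82, and Ap1m1 was 29.5 in KO saline replicate 3 against 11.7 to 16.5. Stmn1 was 15.2 and Ndufa5, a subunit gene of respiratory complex I, was 391 in WT saline replicate 4, and RP23-67F4.3 was 6.72 in WT saline replicate 2. The cytochrome oxidase subunit gene Cox5a was 300.5 in KO saline replicate 1 against 348 to 364. KO saline replicate 3 was also apart in the myelin gene Mag, at 70.4 against 30.8 to 38.7.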

How the results depend on the processing

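Gfap and Grn passed in all 34 settings. Settings chosen after seeing the data were a term for the first residual component, a redraw of rounded counts, and libraries 1 to 5 without a block. The last of these is the same fit as without WT saline replicate 6, so the 34 settings count that fit under both names. Without a count filter 6 genes passed (5 higher, adding Clec7a, Lyz2 and Mpeg1), and 6 did once the first residual component entered the fit (3 lower, adding Lyz2, Fam171a2 and RP24-68H1.1), against 3 in the report. Between 2 and 3 passed without 1 library. The count of higher genes was 1 with library totals alone, deposited library sizes and factors, sex, age or RNA integrity number as a term, males alone, libraries 1 to 5 without a block, or without both libraries of RNA integrity number 8, and ran from 1 to 2 without 1 library. DESeq2 called 4 genes and filterByExpr 4. The latter rule kept Clec7a through the KO saline libraries alone, where it is high, so its call there is no support.

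Same-numbered libraries of the groups had correlations of their deviations from -0.446 to 0.455. Differently numbered ones spanned -0.51 to 0.55, so these values do not decide whether the numbers pair the libraries. With the replicate block 1 higher gene passed and 2 genes in all.

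Non-overlapping genes numbered 10 higher with deposited library sizes and factors, 197 higher and 159 lower in males alone, and 69 higher and 48 lower without both libraries of RNA integrity number 8. With library totals alone they numbered 10 and 29, and after thinning 9 and 27. Without 1 library they ran from 33 to 52 higher and from 16 to 53 lower; fewer libraries leave more genes apart by construction.

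Signs turned in 5 named genes, none of which passed. Ctsb was -0.0336 with library totals and -0.00968 with deposited factors, and Tmem106b was -0.0386 and -0.0161 there, -0.00616 and -0.00628 in limma on deposited CPM, -0.0291 with sex, -0.0787 with age and -0.21 in males alone. Sort1 was 0.11 in males alone. Slc25a39 was 0.0542 with the replicate block, 0.0513 for libraries 1 to 5 without it, 0.0770 with sex, 0.20 in males alone, 0.0788 with age, 0.0671 without both libraries of RNA integrity number 8, 0.0119 after thinning and 0.00696 after the redraw. Without 1 library, Ctsb ran from -0.0314 to 0.0732, Psap from -0.17 to 0.0237, Tmem106b from -0.11 to 0.0840, Sort1 from -0.13 to 0.0438 and Slc25a39 from -0.18 to 0.11. The causes were not tested.

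With at most 2119019 counts per library, the intervals of most genes under 10 CPM reach past a 1.5-fold change. The groups differed in sex, depth and age, which the terms above address singly.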
